A study of Mus musculus with 4 samples.

Results

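Cd4 T cells without S100a6 were studied in the peripheral blood of young and old mice. A cell belonged to the class if it held at least 2 unique molecular identifiers (UMIs, 1 for each captured transcript) of Cd3d, Cd3e and Cd3g together, at least 1 of Cd4, none of Cd8a, Cd8b1, Foxp3 or S100a6, at most 2 of Cd79a and at most 4 of Lyz2. The members were selected on measured values, so the levels of these 10 genes describe the gate and were not tested. The gate held 323 of 14588 cells. Young pool 1 gave 188 of them and young pool 2 gave 117, against 8 in old pool 1 and 10 in old pool 2.

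The mice were C57BL/6 females of 4 months (young) or 24 months (old) from the National Institute of Aging. Each age had 2 samples, and each sample combined the blood of 2 mice, so every n below is a number of pools (2 per age), and differences between single mice were not measured. Mononuclear cells were taken from a density gradient and red cells were lysed before droplet sequencing of transcript 3′ ends. The class held 515076 and 335670 UMIs in the young pools but only 20900 and 30155 in the old pools, which limits every comparison between ages below.

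Naive Cd4 T cells leave the thymus, recirculate between blood and lymphoid organs and have not yet met their antigen. Lef1 is a transcription factor of quiescent naive T cells, Igfbp4 is a secreted binding protein of insulin-like growth factors and a transcript marker of naive Cd4 T cells, and Ccr7 is a chemokine receptor that brings the cells into lymph nodes. On antigen encounter the cells divide and become effector and memory cells, which take up a program of S100 proteins, integrins and the actin-associated Crip1 and Lgals1. In aging mice the thymus shrinks and memory Cd4 T cells come to prevail.

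The naive-like label was checked with Lef1 and Igfbp4, which the gate did not use. In the young pools, 145 of 188 (77.1%) and 70 of 117 (59.8%) class cells had a Lef1 UMI, and 108 (57.4%) and 70 (59.8%) an Igfbp4 UMI. In cells with over 2 Cd79a UMIs, mostly B cells, the shares were 6.1% and 4.6% for Lef1 and 2.8% and 2.2% for Igfbp4. How much of that was RNA free in the droplets was not tested. The young class was thus rich in both markers, and at least 1 of them was seen in 85.6% and 80.3% of its cells. This was not particular to the class. Either marker was also seen in 87.9% and 73.6% of young Cd8 T cells without Ccl5 and S100a6, and in 57.1% and 53.7% of young Cd4 T cells with S100a6.

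The label fitted the old cells less well. A Lef1 UMI was found in 5 of 8 and 4 of 10 class cells of the old pools, and an Igfbp4 UMI in 2 of 8 and 3 of 10. Either marker was present in 62.5% and 40.0% of the old cells, so 3 cells of old pool 1 and 6 of old pool 2 had neither. The old shares lay below both young ones also when each cell was thinned to 1000 UMIs (59.6% and 54.7% in young, and 3 of 8 and 3 of 10 cells in old). With 2 pools against 2, an exact permutation test cannot give p below 0.333, and the difference was not tested further. For this reason the cells are called Cd4 T cells without S100a6 here rather than naive cells.

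Summed over cells, neither marker was called. Igfbp4 was at 586 and 521 CPM (UMIs of a gene over all UMIs of the class in that pool, scaled to one total) in the young class and 574 and 531 CPM in the old, and the ages overlapped. Its 12 and 16 old UMIs came from 5 cells with 5 or 6 UMIs each. Lef1 was at 668 and 435 CPM in young against 431 and 464 CPM in old, again with overlap. The edgeR quasi-likelihood test gave log2 changes of -0.25 ± 0.28 (SE) for Igfbp4 and -0.54 ± 0.33 for Lef1, with adjusted p of 0.999 and 0.914. Without the top cell of each pool, Igfbp4 was at 561 and 483 CPM in young and 287 and 332 CPM in old. Lef1 was then at 652 and 405 against 335 and 232 CPM, so that both old pools lay below both young ones for each. Such a removal weighs more on the old pools, since it took 1 of 2 and 1 of 3 old cells with Igfbp4. In young it took 1 of 108 and 1 of 70. The median log2 change of all genes tested also moved to -0.36, so nothing on these 2 markers was concluded from it. The estimate of Lef1 was below 0 in every alternative that gave it a value (-1.03 to -0.23) and was called in 1 of them, with no filter on low counts.

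The first comparison asked whether the class made up another part of the blood cells in old mice. It was far smaller. The class was 4.82% of all cells in young pool 1 (95% exact binomial interval 4.17 to 5.54%) and 3.03% in young pool 2 (2.52 to 3.62%), but 0.172% in old pool 1 (0.0744 to 0.339%) and 0.457% in old pool 2 (0.219 to 0.839%). Both old pools lay below both young ones, and the means were 3.93 ± 1.26% (SD, n = 2) in young and 0.315 ± 0.201% in old, a ratio of 12.5. The intervals cover counting error only.

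An edgeR test of cell numbers over 7 classes that divide all cells gave a log2 change of -3.81 ± 0.80 (SE) for the class (adjusted p = 0.000738). The exact permutation test (on both sides) gave p = 0.333, the smallest it can give. Leaving out any 1 of the 4 pools gave log2 changes between -3.09 and -4.49, with adjusted p between 0.0539 and 0.102, so the call needed all 4 pools. It was also lost when 2 Cd4 UMIs were asked for (-3.12, adjusted p = 0.0593).

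Part of this went with a lower share of T cells as a whole. Cells past the T cell gate numbered 1204 and 985 in the young pools and 328 and 217 in the old. Among them the class still fell, from 15.6% and 11.9% to 2.44% and 4.61% (log2 change -2.04 ± 0.56, adjusted p = 0.0219). In the same edgeR fit over all cells, Cd4 T cells with S100a6 changed by -0.42 ± 0.72 (adjusted p = 0.658) and Cd8 T cells by -1.34 ± 0.46 (adjusted p = 0.0202), while cells with over 2 Cd79a UMIs rose by 0.42 ± 0.07 (adjusted p = 0.000144). The other gated T cells, mostly without a Cd4, Cd8a or Cd8b1 UMI, changed by -1.92 ± 0.36 (adjusted p = 0.000404). Whether the change in the class differed from that in the other T cells was not tested. Shares add up to a whole, so a fall in cells per volume of blood and a rise of other cells cannot be told apart.

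**Figure D1:**
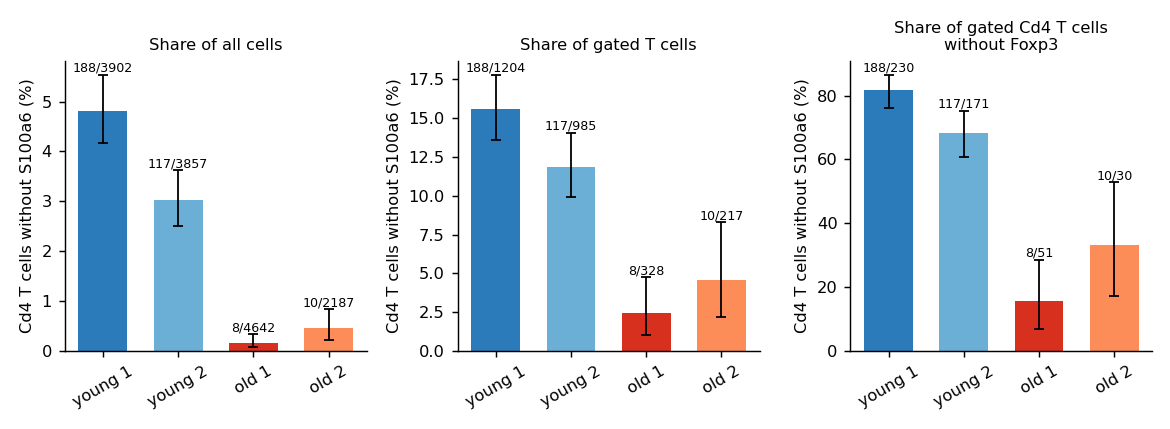
Cd4 T cells without S100a6 as a percentage of all cells, of gated T cells and of gated Cd4 T cells without Foxp3, in each pool (bars, with the number of cells over each). Error bars are 95% exact binomial intervals, which cover counting error only. Both old pools lie below both young pools in each panel, at 0.172% and 0.457% against 4.82% and 3.03% of all cells.

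Cd4 transcripts are sparse, so the gate saw only some of the Cd4 T cells. Of the members, 154, 98, 7 and 6 in young pools 1 and 2 and old pools 1 and 2 held exactly 1 Cd4 UMI, just inside the limit. Gated T cells without a UMI of Cd4, Cd8a or Cd8b1 numbered 552, 539, 132 and 108 and fell outside it. When a Lef1 UMI was asked for in place of Cd4, which was added after the data had been seen, the gate held 391 and 280 cells of the young pools and 9 and 18 of the old, or 10.0%, 7.26%, 0.194% and 0.823% of all cells. The log2 change was then -4.29 (adjusted p = 0.000232, edgeR).

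The second comparison took the Cd4 T cells without Foxp3 alone and asked how many lacked S100a6, a calcium-binding protein of activated and memory T cells. The members were 188 of 230 such cells in young pool 1 (81.7%), 117 of 171 in young pool 2 (68.4%), 8 of 51 in old pool 1 (15.7%) and 10 of 30 in old pool 2 (33.3%). The young pools were high and the old pools low, with no overlap. The mean share was lower by 50.6 percentage points in old, with an exact permutation p of 0.333, the lowest possible here.

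The limit at 0 UMIs can be read from the cells beside it. Exactly 1 S100a6 UMI was found in 20 and 29 young cells and in 9 and 4 old cells, whereas over 2 UMIs were found in 17 and 18 young cells and in 24 and 12 old cells. S100a6 UMIs also occurred in B cells with Fcer2a, at shares of 23.5% and 17.0% in young and 55.8% and 30.9% in old (median depths of 2215.5, 2192.5, 2349 and 2412 UMIs). In young pool 1 the 42 Cd4 T cells with S100a6 among 230 were a smaller share than that in these B cells. S100a6 in other cells was thus higher in old blood too, and how much RNA free in the droplets set the split was not tested. With 1 UMI of S100a6 allowed, which was added after the data had been seen, the share was 90.4% and 85.4% in young and 33.3% and 46.7% in old. Cd4 T cells with a Lef1 UMI, whatever their S100a6, were 4.25% and 2.51% of all cells in young and 0.280% and 0.412% in old (log2 change -3.35, adjusted p = 0.00103 in edgeR), so the fall was also seen without S100a6 in the gate.

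**Figure D2:**
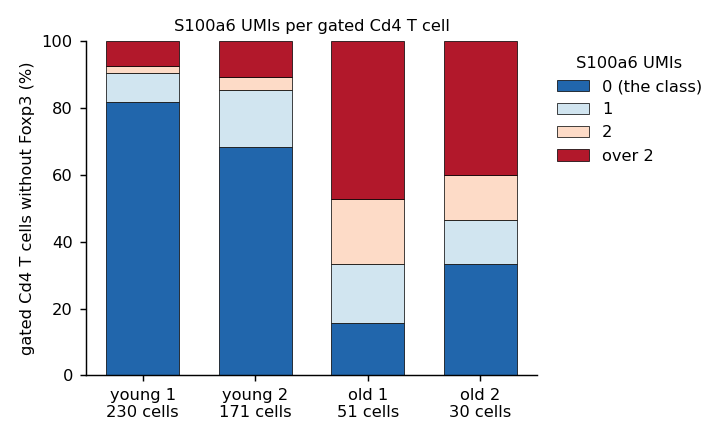
Gated Cd4 T cells without Foxp3 in each pool, split by their S100a6 UMIs (percent of cells, number of cells under each bar). The cells with 0 UMIs are the class, at 81.7% and 68.4% in young and 15.7% and 33.3% in old, and the old pools hold 24 and 12 cells with over 2 UMIs.

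The members differed among themselves. After thinning to 1000 UMIs, a class cell held a UMI of 8 (median) of the 30 genes of a naive and quiescence list in young pool 1, with a range of 3 to 17, and of 8 (1 to 15) in young pool 2. The medians were 8 (7 to 10) in old pool 1 and 6 (5 to 12) in old pool 2. Of the 38 genes of a memory and effector list the medians were 5 and 5 in young and 7.5 and 7.5 in old, and single cells ran from 1 to 18 and 1 to 16 in young and from 1 to 12 and 3 to 13 in old. In the Cd4 T cells with S100a6 the medians were 8.5, 9, 11 and 10. Both ages thus held class cells with many and cells with few memory genes. Memory genes also rose in cells with over 2 Cd79a UMIs in old pool 1 (medians of 5, 5, 6 and 5), and the part of free RNA was not tested.

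**Figure D3:**
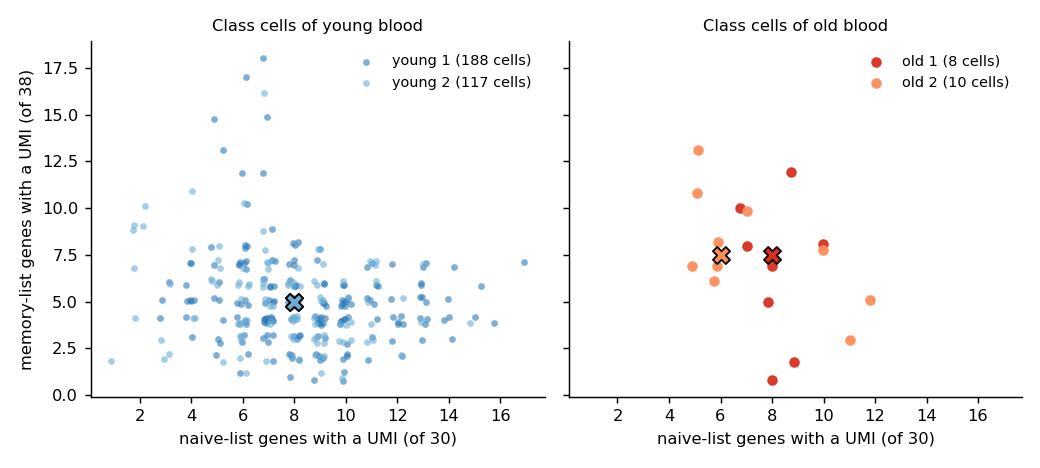
Each point is 1 class cell thinned to 1000 UMIs, with the number of naive-list genes (of 30) and memory-list genes (of 38) that had a UMI, for young blood (left) and old blood (right). Crosses mark the median of each pool, at 5 memory genes in both young pools and 7.5 in both old pools, and points are shifted slightly so that they do not cover each other.

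The next comparison set old against young class cells gene by gene, on UMIs summed per pool. A gene was tested if at least 10% of class cells of each age had a UMI, which left 2285 genes. Since that means 2 or more of the 18 old cells, a gene seen in fewer old cells was left out however high it was in young. The edgeR quasi-likelihood test called 4 genes higher (0.175% of those tested) and 6 genes lower (0.263%) in old mice at an adjusted p under 0.05, while 167 had an unadjusted p under that level. Both old pools lay above both young ones in CPM for 24.0% of the genes tested and below them for 12.8%. Data of the same depth were simulated with a dispersion of 0.05 for every gene. There, 60% of 50 genes raised 4-fold were called but only 2% of those raised 2-fold. Of genes lowered to 0.25 of their level 18% were called, and 12% of those lowered to 0.5. Most falls of this size were thus missed, and a gene not called may still have differed. Counts were drawn per pool and not per cell, so single cells holding most UMIs of a gene were not modelled. These shares may therefore not carry over to the old pools.

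Ly6a (Sca-1), a surface protein of memory T cells that interferon also induces, was at 165 and 179 CPM in the young pools and 813 and 696 CPM in the old. Its log2 change was 1.89 ± 0.31 (adjusted p = 0.00337). A Ly6a UMI was seen in 51 of 188 and 36 of 117 young cells but in 7 of 8 and 7 of 10 old cells, so it was spread over most of the old members. The call held when the cell with most UMIs of each gene was removed from each pool (1.91, adjusted p = 0.00702). Thinning the cells to 1000 UMIs lost the call (2.41, adjusted p = 0.314), as did the gate applied after thinning (1.83, adjusted p = 0.253). It was lost without young pool 1 (1.78, adjusted p = 0.206). Cells with over 2 Cd79a UMIs also had Ly6a, at shares of 54.6% and 51.8% (young pools) and 83.6% and 80.6% (old pools), so the share was higher in old blood outside the class as well, and the Ly6a of the class cannot be told apart from RNA free in the droplets by its share.

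S100a11, a calcium-binding relative of S100a6, was at 186 and 146 CPM in young against 861 and 531 CPM in old (log2 change 1.76 ± 0.33, adjusted p = 0.0115). It was seen in 64 of 188 and 33 of 117 young cells and in 5 of 8 and 7 of 10 old cells. The call was lost without young pool 1, young pool 2 or old pool 1 (adjusted p of 0.109, 0.225 and 0.0629, at log2 changes of 1.93, 1.72 and 1.43). Without cells that held S100a4 or Itgb1 the change was 0.58, and S100a11 was no longer called. Cells with over 2 Cd79a UMIs also had S100a11, at shares of 55.6% and 50.4% (young pools) and 75.2% and 72.1% (old pools), above the share in the class of the same pool. These cells were deeper in old, as given above, which raises their shares. In B cells with Fcer2a, of similar depth at both ages, the shares were 56.3% and 48.3% in young and 56.6% and 58.1% in old.

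Ifi27l2a, an interferon-induced gene, had the smallest p. It was at 798 and 518 CPM in young and 3684 and 2288 CPM in old, a log2 change of 1.91 ± 0.21 (adjusted p = 9.98e-06). Most of the old counts came from single cells, with 42 of 77 UMIs in 1 cell of old pool 1 and 53 of 69 in 1 cell of old pool 2. Without each pool's top cell the levels were 753, 480, 1675 and 531 CPM, so that old pool 2 fell between the young pools, and the log2 change was 0.97 (adjusted p = 0.0899). The median change of all genes tested was -0.36 under the same removal. The gene was nevertheless seen in 6 of 8 and 9 of 10 old cells, beside 127 of 188 and 71 of 117 young cells. In cells with over 2 Cd79a UMIs, deeper in old as given above, the shares were 63.0% and 55.6% in young and 82.1% and 69.8% in old. Their levels were 683 and 545 CPM in young and 899 and 559 CPM in old. In B cells with Fcer2a the shares were 62.9% and 56.9% in young and 84.4% and 68.5% in old. The part of free RNA in the class was not tested.

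H2afx, the histone H2A.X, had the largest change of the called genes, at 44.7 and 92.4 CPM in young and 191 and 564 CPM in old (log2 change 2.44 ± 0.54, adjusted p = 0.0343). All 17 UMIs of old pool 2 lay in 1 cell, and 18 of 31 in young pool 2 likewise. The cell of old pool 2 also held 53 Ifi27l2a, 28 Hmgb2, 5 Top2a and 2 Mki67 UMIs, the last 3 being genes of dividing cells. Class cells with a UMI of Mki67 or Top2a numbered 0 in young pool 1, 2 in young pool 2, 0 in old pool 1 and 1 in old pool 2. Without these 3 cells, an alternative added after the data had been seen, H2afx changed by 0.83 (adjusted p = 0.995), Ifi27l2a by 1.45 (0.995), Ly6a by 1.67 (0.0703) and S100a11 by 1.89 (0.021). The H2afx call was thus lost without these 3 cells.

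The 4 genes next in line upward were not called. Hmgb2 had a log2 change of 1.52 (adjusted p = 0.0535), Lgals1 of 1.31 (0.0558), Crip1 of 0.72 (0.104) and Ly6e of 0.66 (0.116). Hmgb2 again had 28 of its 31 UMIs in old pool 2 in the dividing cell. All 13 UMIs of Lgals1 in old pool 1 lay in 1 cell, as did 21 of 38 in old pool 2 and 55 of 131 in young pool 2. Crip1 was at 1153 and 1150 CPM in young and 2775 and 1791 CPM in old, and Ly6e, like Ly6a a surface protein of the same family, at 965 and 950 against 1866 and 1724 CPM.

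The 6 genes called lower all encode ribosomal proteins, the structural parts of the ribosome. Rps24 was at 6587 and 6098 CPM in young and 3828 and 4875 CPM in old (log2 change -0.77 ± 0.14, adjusted p = 0.00988). Rpl35a (-0.67), Rps7 (-0.66), Rps19 (-0.56), Rps29 (-0.55) and Rps27 (-0.54) had adjusted p between 0.0245 and 0.0343, and both old pools lay below both young ones for each of the 6. Rps20 (-0.63) was not called, with an adjusted p of 0.0535.

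**Figure D4:**
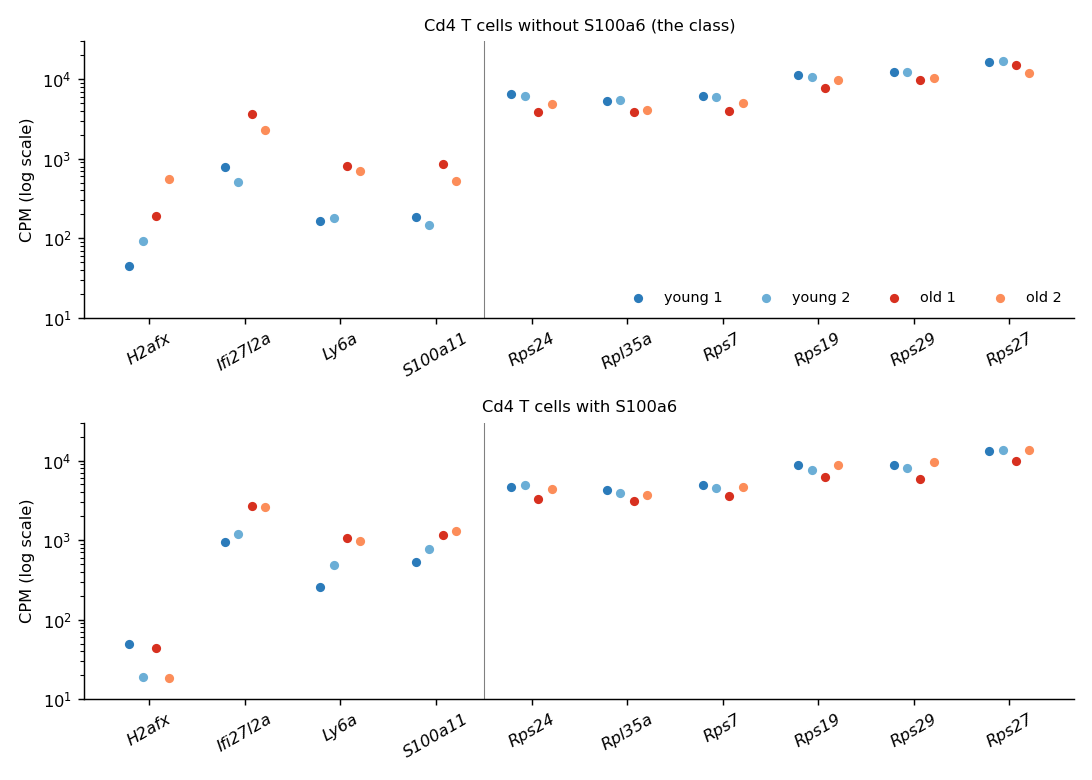
CPM (log scale) of the 4 genes called higher (left of the line) and the 6 genes called lower in old class cells, in each of the 4 pools, for the class (top) and for Cd4 T cells with S100a6 (bottom). In the class the old pools lie on one side of both young pools for each gene, for example Ly6a at 813 and 696 against 165 and 179 CPM.

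As a group, 82 of the 84 cytoplasmic ribosomal protein genes were tested. None was called higher and 6 were called lower, and both old pools lay below both young ones for 44 of the 82, beside 12.8% of all genes tested. The median log2 change of the list was -0.39 against -0.03 over all genes. Of its estimates 81 of 82 were below 0, beside 1205 of 2285 for all genes tested. Without TMM scaling 67 of the 82 were below 0. The lean was not particular to the class. In Cd4 T cells with S100a6, 76 of 82 were below 0 (median -0.20), beside 1316 of 2607 for all genes. Their summed level was 396342 and 382903 CPM in young and 355072 and 347007 CPM in old. The calls were lost under other scalings, with no gene called lower under RLE size factors, with DESeq2 and without TMM scaling, and they were lost without young pool 1 or young pool 2. TMM factors were 0.965 and 0.878 in young and 1.09 and 1.08 in old, so that without TMM the median of all genes moved to 0.19 and that of the list to -0.15. Relative to all genes the list lay lower by a similar amount under each scaling, at -0.36 with TMM, -0.36 with RLE and -0.34 without scaling. This did not hold under every alternative. Without the top cell of each gene the list's median was -0.27 against -0.36 for all genes, or 0.09 above. With no filter on low counts it was -0.89 against -1.26, or 0.37 above. In the remaining alternatives that tested the list it lay below all genes, at -0.86 to -0.15.

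Of the 30 naive and quiescence genes, 26 were tested and none was called in either direction. Their median change was -0.20, and without TMM it was 0.03, beside -0.03 and 0.19 for all genes. The most abundant members not called were Ms4a4b (0.32) and Btg1 (-0.19). Estimates went both ways, with 9 of the 26 above 0 (up to 1.39) and 17 below (down to -1.96). Members far below 0, named here after their values had been seen, were Dapl1 at 487 and 366 CPM in young against 95.7 and 232 CPM in old (-1.52, adjusted p = 0.156) and Satb1, a chromatin organiser of naive T cells, at 332 and 250 against 95.7 and 199 CPM (-1.14, adjusted p = 0.512). The old values rested on 2 and 7 UMIs of Dapl1 and 2 and 6 of Satb1. Ccr7 was at 423 and 384 CPM in young and 383 and 431 CPM in old.

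Of the 38 memory and effector genes, 19 passed the filter, 2 were called higher (Ly6a and S100a11) and none lower. The median was 0.66, and both old pools lay above both young ones for 10 of the 19, beside 24.0% of all genes tested. Without members that held Cd79a or Lyz2, which left 2 cells in each old pool, the median of the 13 genes then tested turned to -0.67, with 2 above 0 and 11 below. The median of all genes was then -0.38. With no filter on low counts the median of all 38 was -0.01, beside -1.26 for all genes. Relative to all genes the list thus lay at 0.70 in the main fit, -0.29 without those members and 1.25 with no filter. Tmsb10, the most abundant member, had an estimate of -0.57 (adjusted p = 0.0558), with 8416 and 8210 CPM in young and 7703 and 5604 CPM in old. Itgb1, an integrin chain of memory T cells named after its values had been seen, was at 54.4 and 92.4 CPM in young and 383 and 232 CPM in old, from 8 and 7 old UMIs (1.84, adjusted p = 0.156). Of the 19 estimates, 12 were above 0 and 7 below, down to -1.53. The filter bears on this list, since 19 of its members were seen in too few cells of an age and were not tested. In Cd4 T cells with S100a6 the list ran higher at both ages, with summed levels of 21427, 23606, 31491 and 24678 CPM against 14538, 14973, 21435 and 16448 CPM in the class.

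**Figure D5:**
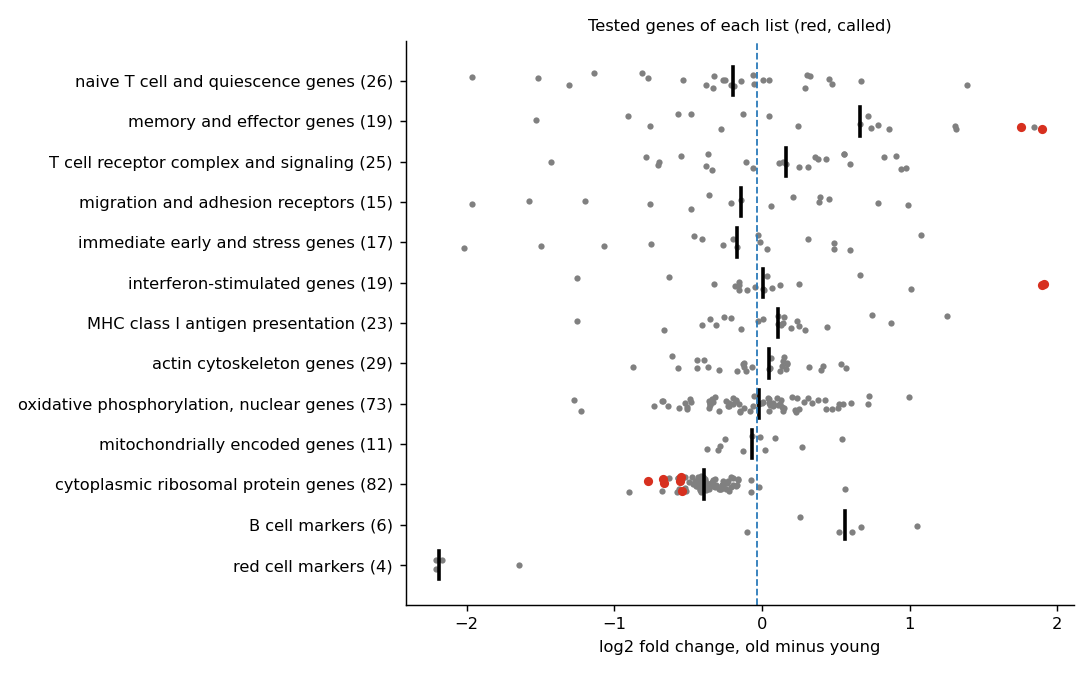
Log2 fold change (old minus young, edgeR) of each tested gene of 13 gene lists, with called genes in red, the number tested in parentheses and the median of each list as a black bar. The dashed line is the median of all genes tested (-0.03), and the ribosomal protein genes have a median of -0.39 and the memory and effector genes of 0.66.

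Among the 19 interferon-stimulated genes tested, 2 were called higher (Ifi27l2a and Ly6a) and none lower, and the median of the list was 0.01. Psmb8, an abundant member and a subunit of the immunoproteasome, had a change of 0.01. Of the antigen presentation genes of MHC class I, 23 were tested and none was called, with a median of 0.11. B2m, the light chain of class I molecules, was at 3300 and 2839 CPM in young and 4306 and 4543 CPM in old (0.29, adjusted p = 0.657), and H2-D1 at 2365 and 2142 against 3493 and 2321 CPM (0.11, adjusted p = 0.999).

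The other lists gave no calls. The T cell receptor complex and signaling genes (25 tested, median 0.16) included Lat (-0.06) and Thy1 (0.38) as abundant members. Migration and adhesion receptors (15 tested, median -0.14) included Klf2, a transcription factor of quiescent and recirculating T cells, at 2046 and 1072 CPM in young and 1148 and 2056 CPM in old, and Coro1a (0.06). Immediate early and stress genes (17 tested, median -0.17) were led by Hspa8 (-0.19) and Junb (0.49). Nuclear genes of oxidative phosphorylation (73 tested, median -0.02), among them Cox4i1 (-0.18) and Cox7a2l (-0.12), and mitochondrially encoded genes (11 tested, median -0.07), among them mt-Atp6 (-0.25) and mt-Co3 (0.02), lay near the median of all genes. Actin cytoskeleton genes (29 tested) had a median of 0.05, with Tmsb4x at 0.12.

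Few regulatory and senescence genes could be tested. Of 14 regulatory T cell genes 3 passed the filter, among them Izumo1r (0.61) and Capg (0.51), with none called. Of 25 genes of aging, inhibitory receptors and senescence 6 passed, with Bcl2 at 0.13 and Cdkn2d, a cell cycle inhibitor, at 1.55 (adjusted p = 0.251). Of 4 genes listed because earlier results showed them high in the T cells of 1 old sample, Cd40lg (-0.91) and Tnfsf8 (0.99) were tested and not called.

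Markers of other cell types were present in the class. Of 14 B cell markers, the 10 among the measured genes summed to 1481 and 1481 CPM in young and 2153 and 3217 CPM in old. None of the 6 tested was called (Cd74 0.67, H2-Aa 1.05, median 0.57). The 9 myeloid markers summed to 394, 500, 1053 and 796 CPM, of which Plac8 (1.78, adjusted p = 0.302) and Ctss (-0.31) were the most abundant tested, and the 6 NK markers to 188, 754, 383 and 133 CPM, with Nkg7 at 0.46. The 3 platelet markers were all at 0 in both young pools and summed to 431 and 298 CPM in old. A Cd79a UMI was found in 49, 31, 2 and 3 members and a Lyz2 UMI in 22, 43, 5 and 6. The levels of B cell, myeloid and platelet markers were thus higher in old pools, as were Ly6a and S100a11 in the class, and their part in the gene results was not tested. Without any member that held Cd79a or Lyz2, 2 cells were left in each old pool, and the estimates of Ly6a, Ifi27l2a and S100a11 turned to -1.79, -0.66 and -0.73, none of them called. Red cell markers, which come from haemoglobin RNA, summed to 23715 and 78634 CPM in young and 21531 and 11972 CPM in old (Hba-a1 -2.21, Hbb-bs -1.65, neither called).

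The fourth comparison asked whether the age difference in the class differed from that in Cd4 T cells with S100a6, of which the pools held 42, 54, 43 and 20. No interaction was called among 2010 genes (0.0%) by edgeR or by DESeq2, while 60 and 10 genes had an unadjusted p under 0.05. Within the cells with S100a6 alone, 10 of 2607 genes (0.384%) were called. Ly6a rose there by 1.37 ± 0.25 (adjusted p = 0.00569) and Ifi27l2a by 1.20 ± 0.22 (adjusted p = 0.00569), beside 1.89 and 1.91 in the class, and the difference between the subsets was 0.48 ± 0.37 for Ly6a and 0.73 ± 0.30 for Ifi27l2a, neither called. S100a11 changed by 0.82 ± 0.22 in the cells with S100a6 (adjusted p = 0.142), with a difference of 0.92 ± 0.40. Both subsets came from the same pools, so they are not independent evidence on the mice.

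The last comparison set the class beside Cd8 T cells without Ccl5 and S100a6, of which the pools held 140, 53, 1 and 3. The interaction of age and subset was called for 10 of 1500 genes (0.667%) in edgeR, 9 of them with the higher change in the class, and for none in DESeq2, where 21 had an unadjusted p under 0.05. Ifi27l2a, Cd52, AW112010 and Actb led those with the higher change in the class, and Hbb-bs was the one below. Since the old Cd8 side was 4 cells in all, these values compare the class with those few cells.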

How the data were processed

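Per the labels and the study's methods, the authors made 10x Genomics 3′ libraries from 4 pooled blood samples, processed them with Cell Ranger on mm10 and Seurat 2.3.0, kept cells by numbers of genes and mitochondrial share, and deposited a table of UMI counts (14697 genes by cell, at least 1117 UMIs in each cell) and a table that names each cell's sample. Between 11 and 24 cell barcodes were shared by each pair of libraries, of which 0 to 2 belonged to the class in the first library of the pair. No doublet caller was run. The limits on Cd79a and Lyz2 removed 26, 14, 9 and 2 gated Cd4 cells in young pools 1 and 2 and old pools 1 and 2.

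Whole libraries held 2187 to 4642 cells at a median of 2233 to 3482 UMIs, and class cells had medians of 2792.5, 2822, 2296 and 2643.5 UMIs.

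UMIs of class cells were summed per pool and tested in edgeR 4.0.16 (TMM, robust quasi-likelihood, Benjamini-Hochberg over all genes tested, threshold 0.05). CPM leave out the TMM factors, whereas log2 changes include them. Gate genes were not tested. Interactions had the sample as a block, and cell numbers used 1 common dispersion. Shares were compared by exact permutation tests over 6 labellings. The replicate numbers share only a name (correlation of same-numbered deviations -0.05 over 2285 genes). Alternatives included DESeq2 1.42.0, and the scripts ran in R 4.3.3 and, with scipy 1.17.1 for exact tests, in Python 3.11.15. The tests were checked on simulated counts.

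The class, the gene lists and the tests were chosen with earlier results of these data known. Genes named are the markers and gate genes, up to 12 called genes per direction with the ages apart (filled up to 8 by smallest p), up to 4 called and 2 abundant uncalled members of each list, and 4 called genes per direction of each interaction. A few items that this rule names or that were measured are not reported here.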

Additional observations from a re-analysis of the deposited data

Results flagged for a closer look

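The age difference in the class differed from that in Cd8 T cells without Ccl5 and S100a6 by the edgeR interaction test for the 5 genes named. The log2 interaction (change in the class minus change in the Cd8 cells) was 3.17 for Ifi27l2a (adjusted p = 0.00139), 2.52 for AW112010 (adjusted p = 0.0391), 1.60 for Cd52 (adjusted p = 0.0023), 1.33 for Actb (adjusted p = 0.000434) and -0.78 for Hbb-bs (adjusted p = 0.00249). The changes in the class were 1.97, 0.97, 0.19, -0.30 and -1.58, and those in the Cd8 cells -1.26, -1.55, -1.48, -1.47 and -0.90, in the same order. The old Cd8 cells were 1 and 3, with 4 UMIs of Ifi27l2a, 5 of AW112010, 19 of Cd52 and 37 of Actb. DESeq2 called none of the 5, and none was called without young pool 1 or without young pool 2.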

How the results depend on the processing

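The fall in the class among all cells kept its direction under every alternative tried, and its call was lost with at least 2 Cd4 UMIs (log2 change -3.12) and in each fit that left out 1 pool (-4.49 to -3.09). The difference in the share without S100a6 ranged from -60.2 to -45.5 percentage points.

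The 4 genes called higher became 13 with no filter on low counts, 10 with filterByExpr, 0 with cells thinned to 1000 UMIs, 2 with the gate applied after thinning, 0 without members that held Cd79a or Lyz2, and 2 to 13 when 1 pool was left out. The 6 genes called lower became 0 with DESeq2, 0 with RLE size factors, 145 with no filter, 20 with filterByExpr, 0 without ribosomal protein genes, 0 with thinned cells, 0 with the gate after thinning, 72 without Cd79a and Lyz2, 41 without cells with Ikzf2, Il2ra or Tnfrsf4, 1 without cells with Csn2 or Cdkn2a, and 0 to 35 when 1 pool was left out. The cause of these shifts was not tested, except that fewer genes or cells entered by construction.

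Among alternatives chosen after seeing the data, the higher calls numbered 2 with no limit on Cd79a and Lyz2, 2 without cells with Mki67 or Top2a, 1 without the top cell of each gene and 2 without TMM. The lower calls numbered 1 with Lef1 in place of Cd4, 0 with no limit on Cd79a and Lyz2, 0 with 1 S100a6 UMI allowed, 0 without Mki67 or Top2a cells, 0 without top cells, 0 without TMM and 11 without haemoglobin genes.

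Without Cd79a and Lyz2, which left 2 cells in each old pool, the estimate changed sign for 20 of 49 named genes, all from above to below 0. Those called with or without these members were Ly6a (-1.79), Ifi27l2a (-0.66), S100a11 (-0.73), H2-D1 (-1.24), Junb (-3.54) and Tmsb4x (-0.98).

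Interactions with Cd4 T cells with S100a6 numbered 74 with no filter and 0 to 9 when 1 pool was left out (9 without old pool 1, 8 without old pool 2), against 0. Those with the Cd8 cells numbered 0 with DESeq2, 5 with RLE and 2 with thinned cells, and 0 to 12 when 1 pool was left out, against 10.

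With the replicate number as a block, 6 genes were called higher and 9 lower (the pairing is by number only), the class fell by 3.79 on the log2 scale, and the Cd8 interactions numbered 2.

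The old class was 18 cells in 2 pools, and the lone pool left in a fit without the other was assumed to vary like the other age.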
